A study of Homo sapiens with 33 samples.

Results

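The genes described here encode the working parts of the lysosome: its proteases, glycosidases, sulfatases and lipid hydrolases, the small proteins that carry or present lipids to those enzymes, the proteins of its limiting membrane, subunits of the proton pump that acidifies it, and 2 regulators, TFEB and GRN. They were taken by gene symbol from a list of 49 such genes, and their levels were read in cells of the human monocytic leukaemia line THP-1. Of the 49, 46 had a probe set annotated to that gene alone, among 19777 genes with such a probe set on the array. GLB1 and CD68 were annotated only on probe sets that name several genes and ACP5 was not analysed here. LGMN, the asparaginyl endopeptidase legumain, was too dim for the test at 40 h, with levels from 0.0844 to 1.77 times the array median, which left 45 genes tested there and 46 in the time course.

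Lysosomal enzymes are made in the endoplasmic reticulum, tagged with mannose 6-phosphate in the Golgi apparatus and carried to the lysosome by sorting receptors, where an acid lumen activates them. Many of their genes share a short palindromic promoter element, known as the CLEAR element, that is bound by TFEB and its relatives, so that stimuli that move TFEB into the nucleus can raise enzymes, membrane proteins and pump subunits together. In cells of the monocyte and macrophage lineage lysosomes digest engulfed material, and cathepsins also cut antigens and the invariant chain of MHC class II.

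THP-1 cultures were exposed to all-trans-retinoic acid (RA), the vitamin A derivative that activates the RAR nuclear receptors, to the cytokine tumour necrosis factor (TNF), or to both. Vehicle cultures received 0.1% ethanol and were harvested at 40 h (n = 6). RA cultures received 20 nM RA for 16 h and the same dose again, for 40 h in all (n = 5). TNF cultures received 5 ng/ml TNF for 24 h (n = 5), and the combined group received 20 nM RA for 40 h with 5 ng/ml TNF over the last 24 h (n = 5). A time course added RA for 2 h (n = 2), 6 h (n = 2) and 16 h (n = 3) and vehicle cultures harvested at 16 h (n = 5), whose sample titles call them 0 h controls; 3 of the vehicle arrays and 2 of the RA arrays harvested at 40 h are titled for both experiments. All 33 arrays come from 1 transformed line, each from its own culture well, so p-values measure the spread between wells of this line.

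Levels below are linear signals in multiples of the array's own median, and differences are log2 values ± their standard error (SE) from the fit over all genes; a gene is called higher or lower at a Benjamini-Hochberg adjusted p under 0.05. Probe sets differ in brightness, so levels of the lysosomal genes are compared between groups and never between genes. Each value is an average over a well, so fewer cells of a type and less RNA per cell cannot be told apart. Where the values of single arrays are listed, they stand in the order of the replicate numbers. Arrays of a group correlated at 0.86 to 0.936 across the brightest probe set of each gene. The 40 h arrays fell into 2 sets by the run of their record numbers, replicates 1 to 3 (set 1) and the later replicates (set 2), and the log2 ratio of the 3′ to the 5′ ACTB control probe sets was 1.31 ± 0.33 (SD, n = 12) in set 1 and 0.59 ± 0.26 (SD, n = 9) in set 2; array set was a term of the 40 h fit. Of 8 monocytic markers 7 had a probe set, and SPI1, CEBPA, LYZ, ITGAM, CSF1R and PTPRC lay above the array median on all 33 arrays and CD14 on 28. The summed level of these markers was 189.3 to 354.4 in vehicle and 261.4 to 541.1 with RA. It was 212.8 to 353.3 with TNF and 387.4 to 482.1 with both. The sum is weighted towards the brightest probe sets, those of CEBPA (mean level 158.7) and LYZ (77.6). The part of these sums in the results was not tested. Among markers of T, B, erythroid, epithelial and fibroblast cells the highest mean levels were 2.60 for COL1A1, 2.37 for CD79A and 1.44 for HBB.

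To show this element in the genes described here, stretches of 90 bases just upstream of the RefSeq transcription start (GRCh38.p14) are printed for 6 of them, 5′ to 3′ along the gene's strand, with the 8-letter palindrome TCACGTGA in capitals. The 6 are ATP6V0D1, a membrane subunit of the proton pump (chr16:67481158-67481247, minus strand), CTSA, the carboxypeptidase that also protects NEU1 and beta-galactosidase (chr20:45891245-45891334, plus strand), GAA, the acid alpha-glucosidase that degrades glycogen (chr17:80101491-80101580, plus strand), LAMP1, an abundant glycoprotein of the lysosomal membrane (chr13:113297149-113297238, plus strand), MCOLN1, a lysosomal calcium channel (chr19:7522534-7522623, plus strand), and the aspartic protease CTSD (chr11:1763928-1764017, minus strand), in which only the inner 6 letters, CACGTG, occur and are in capitals.
ATP6V0D1: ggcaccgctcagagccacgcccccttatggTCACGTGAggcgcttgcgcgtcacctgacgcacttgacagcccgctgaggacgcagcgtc
CTSA: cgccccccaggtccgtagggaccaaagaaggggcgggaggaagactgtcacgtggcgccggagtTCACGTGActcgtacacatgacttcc
GAA: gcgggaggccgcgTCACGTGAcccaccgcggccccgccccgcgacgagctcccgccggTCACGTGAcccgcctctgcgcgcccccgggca
LAMP1: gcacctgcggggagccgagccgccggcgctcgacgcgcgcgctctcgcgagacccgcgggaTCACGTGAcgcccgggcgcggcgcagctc
MCOLN1: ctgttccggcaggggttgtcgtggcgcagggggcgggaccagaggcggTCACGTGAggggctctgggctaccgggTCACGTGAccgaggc
CTSD: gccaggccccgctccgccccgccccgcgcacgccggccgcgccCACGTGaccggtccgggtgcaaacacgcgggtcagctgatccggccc
GAA and MCOLN1 each carry the 8-letter word at 2 places of the printed stretch. LAMP1 has a second match across the start, at bases -2 to 6, which the printed stretch cuts. Promoter windows of 300 bases (250 before to 50 after the start) were on hand for 35 of the 49 genes, and 6 of the 35 (17.1%) held TCACGTGA, against 283 of 27305 windows of all genes (1.04%). The sixth gene, CLN3, holds its match across the start itself and is not printed. The shorter CACGTG, which every TCACGTGA contains and which reads alike on both strands, was in 9 of 35 (25.7%) against 7.43% of all windows. A match is a description of these letters, not a measured binding site.

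RA alone raised 12 of the 45 genes at 40 h, and limma called none lower (at an unadjusted p under 0.05, 18 were higher and 0 lower); after quantile normalization CD63 was called lower, at -0.27 (adjusted p = 0.0242), and none was on the trimmed-mean signal scale. Prosaposin (PSAP), the precursor of the saposins that present sphingolipids to their hydrolases, rose 3.49-fold, cathepsin D (CTSD) 2.61-fold and progranulin (GRN), a secreted and lysosomal glycoprotein, 2.25-fold. The other called genes were the ceramidase ASAH1, the cysteine proteases CTSS, CTSB and CTSZ, the glycosidases FUCA1 and GUSB, the cholesterol carrier NPC2, the acid lipase LIPA and TFEB itself. Of all 12393 genes tested, 2.77% were called higher and 1.37% lower. The median difference of the 45 genes was 0.26, against -0.003 for all genes, and 36 of the 45 lay above 0. By class, 4 of 10 proteases, 2 of 10 glycosidases, 4 of 8 lipid hydrolases and carriers and both regulators were called, against 0 of 4 sulfatases, 0 of 7 membrane proteins and 0 of 4 pump subunits. At an unadjusted p under 0.05 these last 3 classes held 1 (SGSH), 2 (LAMP1 and MCOLN1) and 1 (ATP6V0D1). SGSH was called higher after quantile normalization (adjusted p = 0.0447) and on the trimmed-mean signal scale (adjusted p = 0.0242), and LAMP1 after quantile normalization (adjusted p = 0.0402), so the classes with called genes depend on the scale.

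PSAP (chr10:71816298-71851251, GRCh38.p14) was measured at 54.4 to 113, with a median of 74.0, times the array median in the 6 vehicle arrays and at 307, 235, 211, 258 and 344 in the 5 RA arrays, a difference of 1.80 ± 0.17 (adjusted p = 1.12e-09). Every RA array was above every vehicle array. The same held for CTSS, which cuts the MHC class II invariant chain: vehicle arrays ran from 29.9 to 40.6, with a median of 34.6, and RA arrays were 63.5, 51.1, 62.9, 65.5 and 90.6, with a difference of 0.90 ± 0.16 (adjusted p = 0.000125). ASAH1, which splits ceramide, was the other gene whose groups did not overlap: it ran from 37.1 to 89.3, with a median of 57.7, in vehicle and was 113, 92.4, 111, 111 and 157 with RA, 0.99 ± 0.17 (adjusted p = 0.000157). Of all genes tested, 1.36% had RA arrays wholly above the vehicle arrays.

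CTSD (chr11:1752755-1763927) ran from 4.84 to 12.6, with a median of 9.40, in vehicle and was 20.4, 11.4, 12.8, 33.9 and 45.9 with RA, 1.38 ± 0.21 (adjusted p = 1.70e-05). GRN (chr17:44345302-44353106) ran from 37.0 to 77.7, with a median of 58.5, in vehicle and was 109.6, 65.2, 71.1, 189.5 and 224 with RA, 1.17 ± 0.17 (adjusted p = 5.56e-06). In both genes replicates 4 and 5 stood highest and replicate 2 lay within the vehicle range, as did replicate 3 for GRN. CTSB ran from 24.7 to 52.2, with a median of 43.1, in vehicle and was 53.9, 39.7, 39.4, 98.2 and 137 with RA, 0.75 ± 0.18 (adjusted p = 0.00903), and TFEB ran from 5.26 to 9.23, with a median of 7.28, in vehicle and was 6.90, 7.82, 9.07, 17.7 and 23.9 with RA, 0.73 ± 0.20 (adjusted p = 0.0268). These too were led by replicates 4 and 5, and replicates 2 and 3 lay within the vehicle range in each, as did replicate 1 for TFEB. FUCA1, which removes fucose from glycoproteins, differed by 0.77 ± 0.22 (adjusted p = 0.0331), GUSB (beta-glucuronidase) by 0.60 ± 0.15 (adjusted p = 0.0142), NPC2 by 0.63 ± 0.16 (adjusted p = 0.0106), LIPA by 0.57 ± 0.16 (adjusted p = 0.0287) and CTSZ by 0.70 ± 0.20 (adjusted p = 0.0336). 

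The array values of these 5 genes were as follows. FUCA1 ran from 5.31 to 8.26, with a median of 6.88, in vehicle and was 10.3, 6.71, 7.14, 16.0 and 22.4 with RA, and GUSB ran from 42.2 to 93.8, with a median of 77.0, and was 99.1, 66.5, 80.8, 126 and 153. NPC2 ran from 51.7 to 94.9, with a median of 80.5, in vehicle and was 109.6, 92.4, 81.8, 143 and 177 with RA. In these 3 genes, too, replicates 4 and 5 were the highest RA arrays, and replicates 2 and 3 were within the vehicle range. LIPA, which splits cholesteryl esters and triglycerides, ran from 25.1 to 43.6, with a median of 37.3, in vehicle and was 52.0, 34.3, 42.1, 63.1 and 81.9 with RA. CTSZ ran from 5.37 to 9.97, with a median of 6.43, in vehicle and was 10.2, 6.97, 10.6, 13.1 and 13.1 with RA, each RA array above the vehicle median. The largest difference among the 33 genes not called was that of the heparan sulfamidase SGSH, at 0.92 ± 0.28 (adjusted p = 0.0536), and the most negative that of ARSB, at -0.36.

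PSAP, CTSD, GRN, CTSS and ASAH1 passed the test whichever of the 11 arrays was left out. Without replicate 5 of the RA group only these 5 were called, and CTSB, NPC2, GUSB, CTSZ, FUCA1, LIPA and TFEB were not. Other arrays mattered too: CTSZ lost its call in 9 of the 11 fits, FUCA1 in 7, LIPA in 5 and TFEB in 4. GUSB lost it in 2 fits, and CTSB and NPC2 in 1 each. The array median of replicate 5 on the signal scale was 23.2 units, against 27 to 45.2 in the vehicle arrays at 40 h. The part of this in the values of replicate 5 was not tested. GUSB, averaged over all its probe sets, gave -0.13. It has 2, and the one not kept was too dim for the test.

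**Figure D1:**
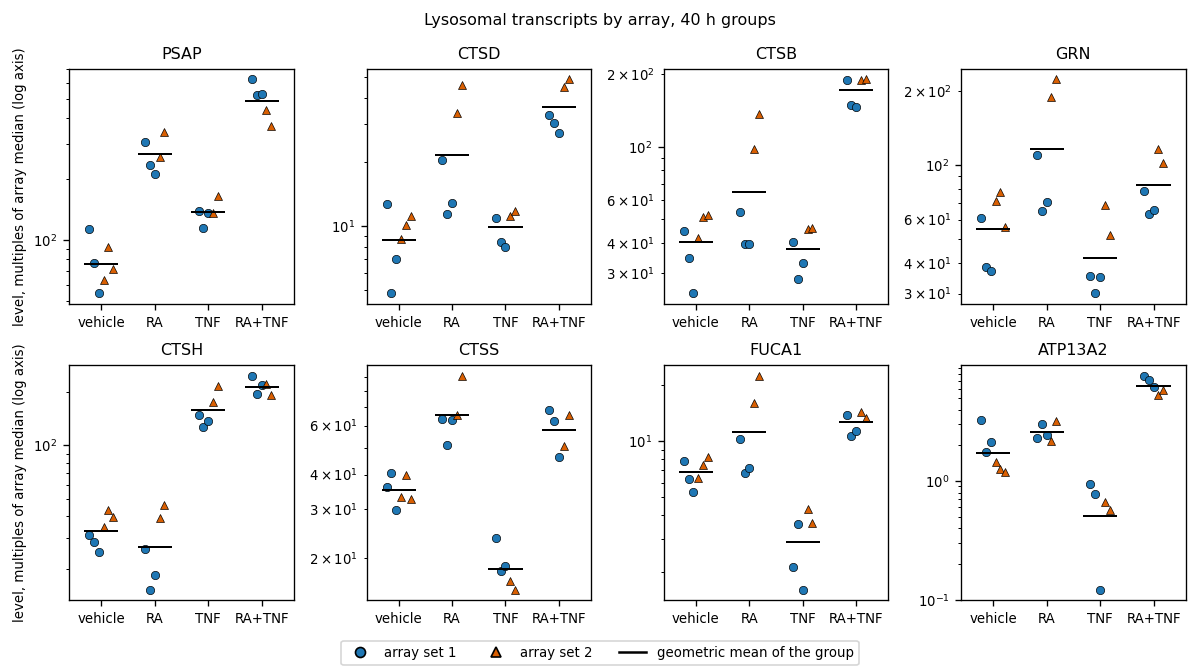
Signal of 8 lysosomal genes in the vehicle, RA, TNF and RA plus TNF groups at 40 h, in multiples of the array median on a log axis. Each point is 1 array (circles, array set 1; triangles, array set 2) and each line the geometric mean of a group. CTSH is high in both TNF groups, and FUCA1, CTSS and ATP13A2 are low with TNF alone and high with RA plus TNF.

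TNF alone changed 9 of the genes, in both directions. It raised cathepsin H (CTSH), an aminopeptidase, 4.94-fold, and also raised SGSH, PSAP, the dipeptidyl peptidase CTSC, which activates granule serine proteases, and the cholesterol transporter NPC1. It lowered ATP13A2, a polyamine-exporting P-type ATPase of the lysosomal membrane, FUCA1, CTSS and the tripeptidyl peptidase TPP1. These were 5 genes higher and 4 lower of 45, where 6.69% of all genes tested were called higher and 4.62% lower. The median of the 45 genes was -0.09, against -0.01 for all genes.

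CTSH (chr15:78921058-78945046) ran from 25.0 to 43.4, with a median of 33.1, in vehicle and was 148, 127, 138, 176 and 216 with TNF, a difference of 2.30 ± 0.17 (adjusted p = 1.35e-12), with no overlap between the groups. PSAP was 139.6, 115, 136, 136 and 164 with TNF, each value above the highest vehicle array, 0.85 ± 0.17 (adjusted p = 0.000667). SGSH ran from 0.790 to 2.94, with a median of 1.71, in vehicle and was 5.50, 2.60, 3.57, 4.22 and 2.88 with TNF, 1.09 ± 0.28 (adjusted p = 0.00671), and these groups shared part of their range. CTSC differed by 0.52 ± 0.15 (adjusted p = 0.0207): it ran from 23.2 to 44.0, with a median of 35.5, in vehicle and was 38.0, 31.4, 40.6, 69.4 and 72.6 with TNF, where replicates 4 and 5 alone exceeded the vehicle range. NPC1 differed by 0.52 ± 0.17 (adjusted p = 0.043): it ran from 6.96 to 9.55, with a median of 8.65, in vehicle and was 14.8, 13.7, 12.4, 11.8 and 9.09 with TNF, and 4 of the 5 TNF arrays were above all vehicle arrays. MCOLN1 was 3.06, 3.02, 3.19, 3.00 and 2.74 with TNF, above the vehicle range of 0.938 to 2.50, with a median of 1.75, yet not called, at 0.82 ± 0.31 (adjusted p = 0.0881). Groups did not overlap upward for CTSH, PSAP and MCOLN1 and downward for CTSS, FUCA1 and ATP13A2, which compares with 3% and 1.61% of all genes.

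Among the genes that fell, CTSS was 23.7, 17.9, 18.8, 16.5 and 15.4 with TNF, below every vehicle array, -0.94 ± 0.16 (adjusted p = 3.26e-05). FUCA1 (chr1:23845077-23868290) ran from 5.31 to 8.26, with a median of 6.88, in vehicle and was 2.13, 3.61, 1.60, 4.33 and 3.64 with TNF, -1.19 ± 0.22 (adjusted p = 0.000155). ATP13A2 (chr1:16985958-17011928) ran from 1.19 to 3.27, with a median of 1.60, in vehicle and was 0.939, 0.774, 0.122, 0.672 and 0.574 with TNF, -1.78 ± 0.39 (adjusted p = 0.00133). The TNF arrays of ATP13A2 were all below the array median, where signals are near the dim end of the scale, and replicate 3 was the lowest; without it the difference was -1.25. TPP1 ran from 71.8 to 133, with a median of 112, in vehicle and was 77.9, 56.6, 69.5, 89.4 and 68.2 with TNF, partly within the vehicle range. It differed by -0.54 ± 0.16 (adjusted p = 0.0228), and the highest of its other 3 probe sets gave 0.10.

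How many genes TNF was seen to lower depended on the scaling of the arrays: on quantile-normalized values 6 genes were higher and 12 lower, and on the trimmed-mean signal scale 7 were higher and 9 lower. The shares of all genes called on these scales are not given here, so these counts have no background beside them. CTSA, GAA, GUSB, NPC2 and LAMP2 were the added lower calls on both scales; GUSB, for example, was -0.34 (adjusted p = 0.16) on the deposited scale and -0.41 (adjusted p = 0.00023) after quantile normalization. CTSC, TPP1 and NPC1 lost their call in 4, 5 and 8 of the 11 fits that left out 1 array.

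RA and TNF together raised 25 of the 45 genes, and limma called none lower (30 and 0 at an unadjusted p under 0.05). Other scalings gave lower calls: after quantile normalization 24 genes were higher and 3 lower, namely TPP1, at -0.44 (adjusted p = 0.000232), CD63, at -0.30 (adjusted p = 0.00379), and PPT1, at -0.18 (adjusted p = 0.0171), and on the trimmed-mean signal scale 25 were higher and 1 lower, TPP1, at -0.37 (adjusted p = 0.00376). The largest changes against vehicle were in CTSH, 6.69-fold, PSAP, 6.40-fold, CTSB, 4.47-fold, SGSH, 4.43-fold, CTSD, 4.37-fold, and ATP13A2, 3.62-fold. All classes held called genes: 7 of 10 proteases, 4 of 10 glycosidases, 1 of 4 sulfatases, 6 of 8 lipid hydrolases and carriers, 2 of 7 membrane proteins, 3 of 4 pump subunits and both regulators. Of all genes tested, 11.7% were called higher and 7.42% lower. The median difference was 0.62, against 0.05 for all genes, and in 21 of the 45 genes every RA plus TNF array was above every vehicle array, against 5.8% of all genes.

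Among the proteases, CTSB was 190.2, 149.5, 147, 189 and 190.3 with both agents, all above the highest vehicle array of 52.2, a difference of 2.16 ± 0.18 (adjusted p = 1.03e-11). CTSD was 33.2, 30.6, 27.4, 44.9 and 48.8, 2.13 ± 0.21 (adjusted p = 5.83e-10), and CTSH was 247, 195, 218, 222 and 192, 2.74 ± 0.17 (adjusted p = 3.79e-15). The 3 genes had no overlap with vehicle. CTSZ, a carboxypeptidase, differed by 1.48 ± 0.20 (adjusted p = 3.42e-07), CTSC by 1.14 ± 0.15 (adjusted p = 4.23e-07), the endopeptidase CTSL by 0.99 ± 0.15 (adjusted p = 4.21e-06) and CTSS by 0.72 ± 0.16 (adjusted p = 0.000642). In the order of the replicates the combined arrays were 19.5, 15.5, 18.0, 18.7 and 19.3 for CTSZ, 77.5, 62.6, 70.1, 75.5 and 80.7 for CTSC and 46.9, 30.9, 32.6, 39.8 and 46.9 for CTSL, all above the vehicle arrays. CTSS was 68.5, 62.3, 46.2, 50.6 and 65.4, likewise above vehicle. CTSA, CTSK and TPP1 were not called, with differences of 0.37, -0.29 and -0.26.

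Among the enzymes that cut sugars, the mannosidase MAN2B1 was 98.8, 81.0, 77.3, 79.8 and 100.3 with both agents, above the vehicle range of 33.7 to 57.1, with a median of 49.7, and differed by 0.92 ± 0.16 (adjusted p = 2.82e-05). FUCA1 was 13.9, 10.7, 11.3, 14.3 and 13.4, 0.95 ± 0.22 (adjusted p = 0.00144), and the sialidase NEU1 was 36.0, 27.0, 30.7, 30.9 and 30.5, 0.85 ± 0.16 (adjusted p = 8.40e-05). FUCA1, which was low with TNF alone, thus stood above vehicle in all 5 arrays. GUSB was 93.1, 83.1, 81.6, 101 and 94.2, overlapping vehicle, and differed by 0.44 ± 0.15 (adjusted p = 0.0371). SGSH, which takes sulfate from heparan sulfate, was the 1 called sulfatase, at 7.81, 6.13, 5.73, 8.61 and 10.3, 2.15 ± 0.28 (adjusted p = 1.83e-07).

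PSAP was 624, 522, 531, 439.9 and 367 with both agents, higher than on any RA, TNF or vehicle array, and differed from vehicle by 2.68 ± 0.17 (adjusted p = 1.17e-14). NPC2, which passes cholesterol to NPC1, was 203, 139.8, 145, 172 and 150.0, 1.10 ± 0.16 (adjusted p = 1.07e-06), while NPC1 itself was not called, at -0.01 ± 0.17 (adjusted p = 0.989). ASAH1 differed by 1.06 ± 0.17 (adjusted p = 1.45e-05), the phosphatase ACP2 by 0.99 ± 0.24 (adjusted p = 0.00234), the sphingomyelinase SMPD1 by 0.93 ± 0.31 (adjusted p = 0.0322) and LIPA by 0.90 ± 0.16 (adjusted p = 4.38e-05). ACP2 was 11.2, 10.2, 10.3, 10.2 and 8.71 with both agents against 4.24 to 6.74, with a median of 5.16, in vehicle, and LIPA was 77.7, 58.9, 66.8, 57.7 and 67.3, both without overlap. ASAH1 was 146, 101, 111, 117 and 132, also above every vehicle array. SMPD1, with 4.96, 3.96, 4.12, 4.29 and 4.67 against 0.860 to 3.99, with a median of 2.83, in vehicle, overlapped at 1 array. The other SMPD1 probe set bright enough for the test gave 0.10. PPT1, which removes fatty acids from proteins, was the other gene of its class that was not called, at -0.27.

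Of the membrane proteins, ATP13A2 was 7.67, 7.02, 6.16, 5.30 and 5.82 with both agents, 1.85 ± 0.39 (adjusted p = 0.00046), and MCOLN1 was 4.64, 3.97, 2.99, 3.39 and 3.63, 1.12 ± 0.31 (adjusted p = 0.00869). LAMP1 and LAMP2, the major glycoproteins of the membrane, differed by 0.26 ± 0.15 and 0.16 ± 0.15 and were not called, nor were CD63, SCARB2 and CLN3. Of the pump genes, the accessory subunit ATP6AP1 was 69.2, 62.9, 66.3, 64.0 and 62.5, above every vehicle array, 0.67 ± 0.16 (adjusted p = 0.00145). The cytosolic subunits ATP6V1H and ATP6V1A differed by 0.57 ± 0.19 (adjusted p = 0.0316) and 0.52 ± 0.18 (adjusted p = 0.0356); the other ATP6V1H probe set gave -0.08. ATP6V1H was 28.1, 19.9, 20.9, 28.3 and 23.6 with both agents against 12.0 to 25.1, with a median of 15.7, in vehicle, and ATP6V1A was 63.0, 52.7, 58.7, 63.3 and 80.0 against 28.2 to 61.4, with a median of 46.8, in vehicle. Both pump genes overlapped vehicle. TFEB was 19.7, 13.8, 13.2, 17.6 and 26.7, 1.34 ± 0.20 (adjusted p = 3.15e-06), above every vehicle array. GRN, at 78.8, 63.5, 65.8, 117 and 103, overlapped vehicle and differed by 0.68 ± 0.17 (adjusted p = 0.00285). On leaving out each of the 11 arrays the count was 21 to 29. GUSB, SMPD1, ATP6V1A and ATP6V1H lost their call in 7, 6, 7 and 5 of these fits.

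TCACGTGA was counted apart in the genes that rose and in those that did not pass the test. Among the 18 genes higher in RA plus TNF than in vehicle that had a window, 1 held it (5.56%), namely MCOLN1, whereas 5 of the 14 tested genes not called held it (35.7%): ATP6V0D1, CTSA, GAA, LAMP1 and CLN3. For CACGTG the shares were 3 of 18 (16.7%) and 6 of 14 (42.9%). Of all genes with a probe set and a window, 1.45% held TCACGTGA and 8.9% held CACGTG. No window was on hand for the other called genes, namely PSAP, CTSB, SGSH, CTSS, ASAH1, ATP6V1A and ATP6V1H. The first 3 of these had some of the largest rises, so the shares leave out much of what rose. These shares are descriptions of short windows, and the difference was not tested.

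**Figure D2:**
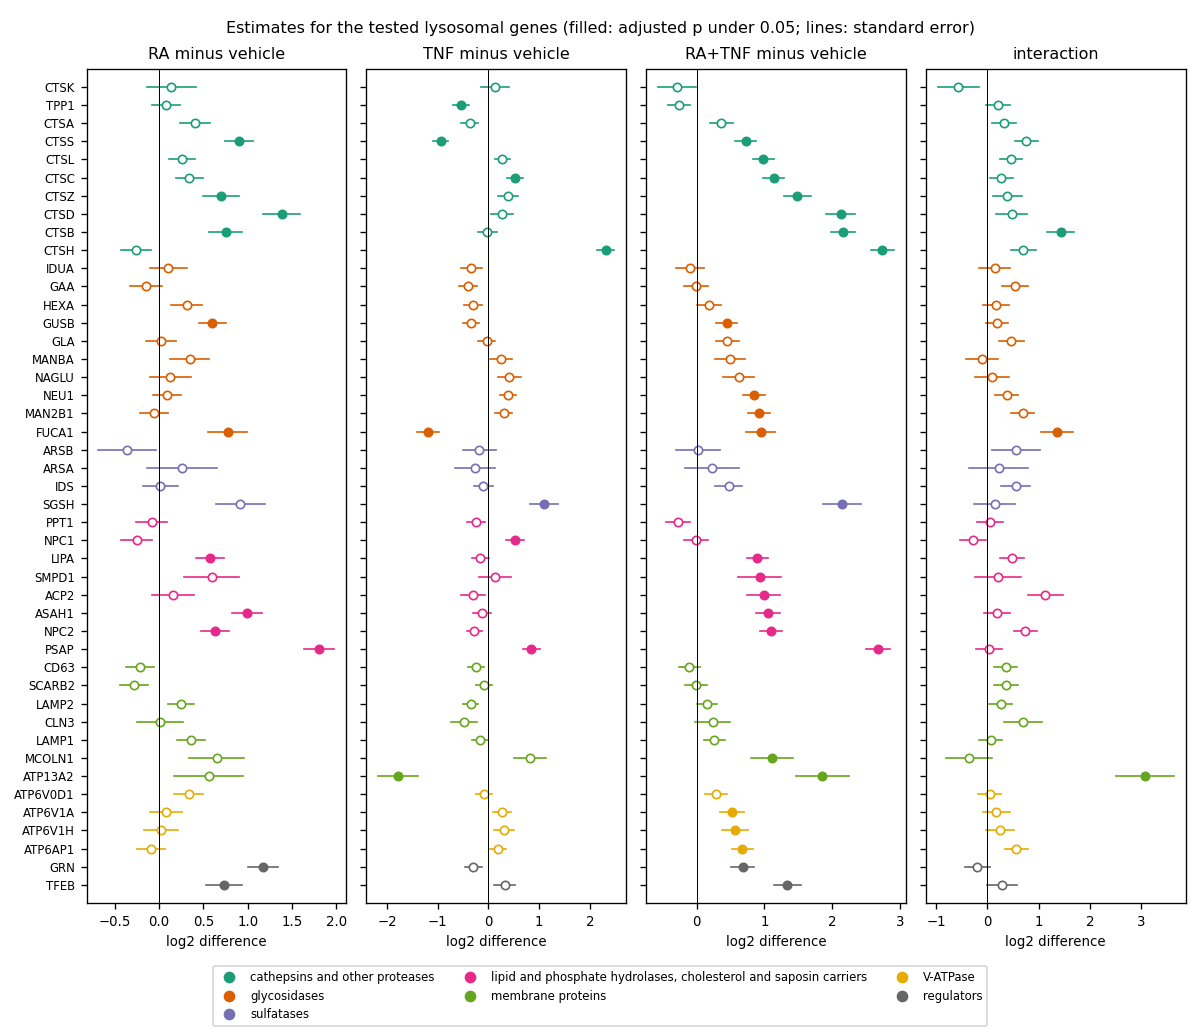
Log2 differences ± SE of the 45 tested lysosomal genes, grouped by class, for each treated group against vehicle and for the interaction. Filled points passed an adjusted p of 0.05; they number 12, 9, 25 and 3.

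Several genes passed the test in more than 1 of these comparisons, which share their vehicle arrays. The shares of all genes with the same combinations of calls were not computed. CTSC, CTSH, SGSH and PSAP were higher than vehicle both with TNF and with RA plus TNF. CTSS, FUCA1 and ATP13A2 were lower with TNF and higher with RA plus TNF. CTSL, MAN2B1, NEU1, SMPD1, ACP2, MCOLN1, ATP13A2, ATP6AP1, ATP6V1A and ATP6V1H, 10 genes, were higher than vehicle with RA plus TNF and were not called higher with either agent alone; of these, NEU1 was called higher with TNF on both other scales and MCOLN1 on the trimmed-mean signal scale.

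Set against TNF alone, adding RA raised 20 of the 45 genes, and limma called none lower (31 higher and 1 lower, NPC1, at an unadjusted p under 0.05), where 4.6% of all genes were called higher and 2.69% lower. ATP13A2 rose by 3.64 ± 0.41 on the log2 scale (adjusted p = 2.56e-08), and by 3.08 without TNF replicate 3; no fold is given, since its TNF arrays were all below the array median. CTSB rose 4.54-fold (2.18 ± 0.19, adjusted p = 9.10e-11) and FUCA1 4.40-fold (2.14 ± 0.23, adjusted p = 9.41e-09). In each of the 3 genes the lowest RA plus TNF array was above the highest TNF array. CTSD differed by 1.86 ± 0.22, PSAP by 1.83 ± 0.18, CTSS by 1.67 ± 0.16, NPC2 by 1.37 ± 0.16, ACP2 by 1.29 ± 0.25 and ASAH1 by 1.19 ± 0.18. The other called genes were CTSZ, SGSH, LIPA, TFEB, GRN, GUSB, CTSA, CTSL, MAN2B1, CTSC and LAMP2, from 1.09 for CTSZ down to 0.51 for LAMP2. CTSA was 34.0, 37.8, 29.7, 34.9 and 32.7 with both agents and 18.3, 16.5, 15.7, 27.4 and 26.7 with TNF, without overlap, and LAMP2 was 86.0, 64.1, 65.8, 73.0 and 117 and 61.8, 42.5, 54.5, 56.7 and 65.9, with overlap. CTSH, at 0.44 ± 0.18, was not called on adding RA to TNF (adjusted p = 0.15).

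The median of the 45 genes was 0.51 in this comparison, against 0.04 for all genes, and 42 lay above 0. In 20 genes, not all of them called, the RA plus TNF arrays were wholly above the TNF arrays, against 3.66% of all genes. All 12 genes that RA raised without TNF were also raised by RA in its presence. A further 8 (CTSA, CTSC, CTSL, MAN2B1, SGSH, ACP2, LAMP2 and ATP13A2) were called with TNF present and not without it. Of these 8, SGSH was called without it on both other scales, and CTSA and CTSC after quantile normalization. The share of all genes raised by RA without TNF that were also raised in its presence was not computed. NPC1 had the most negative estimate, -0.53 ± 0.18 (adjusted p = 0.0679), and was not called; on the quantile and trimmed-mean scales it was called lower, at -0.60 (adjusted p = 0.0106) and -0.59 (adjusted p = 0.00735). CTSC, MAN2B1, SGSH and LAMP2 lost their call in 1, 1, 3 and 7 of the 10 fits that left out 1 array.

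Set against RA alone, adding TNF raised 13 genes, and limma called none lower (20 higher and 1 lower, GRN, at an unadjusted p under 0.05), where 7.63% of all genes were called higher and 4.55% lower. CTSH rose 8.03-fold (3.00 ± 0.18, adjusted p = 4.44e-15), from 26.1, 15.4, 18.6, 39.0 and 46.1 with RA to the levels given above. CTSB differed by 1.41 ± 0.19 (adjusted p = 7.16e-07), ATP13A2 by 1.29 ± 0.41 (adjusted p = 0.0291), SGSH by 1.23 ± 0.29 (adjusted p = 0.00269), MAN2B1 by 0.98 ± 0.17 (adjusted p = 3.53e-05) and PSAP by 0.87 ± 0.18 (adjusted p = 0.000614). ACP2, CTSC, CTSZ, ATP6AP1, NEU1, CTSD and CTSL were the others, between 0.73 and 0.83. In 9 genes the groups did not overlap, against 3.58% of all genes. GRN was lower with both agents than with RA, -0.49 ± 0.18 (adjusted p = 0.0639), but was not called on the deposited scale; after quantile normalization it was -0.65 (adjusted p = 0.000599), and the split of calls moved to 16 higher and 4 lower, or 16 and 2 on the trimmed-mean scale. CTSD, ACP2 and ATP13A2 lost their call in 3, 5 and 7 of the 10 fits that left out 1 array.

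Of the called genes, 10 were higher in the combined group than in vehicle, in TNF and in RA: CTSB, CTSC, CTSD, CTSL, CTSZ, MAN2B1, SGSH, PSAP, ACP2 and ATP13A2. These comparisons share the RA plus TNF arrays, and the share of all genes called higher in all of them was not computed.

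The interaction term asks whether the RA difference was larger with TNF than without it. It was called for 3 of the 45 genes, all in the positive direction, where 0.266% of all genes were called positive and 0.161% negative. For ATP13A2 the RA difference was 0.56 without TNF and 3.64 with it, an interaction of 3.08 ± 0.56 (adjusted p = 0.00371); it was 2.54 without TNF replicate 3, and rests on TNF arrays below the array median. For CTSB it was 0.75 and 2.18, an interaction of 1.43 ± 0.26 (adjusted p = 0.00371), and for FUCA1 0.77 and 2.14, an interaction of 1.36 ± 0.32 (adjusted p = 0.0352). ATP13A2 and FUCA1 are 2 of the genes that TNF alone lowered, whereas CTSB with TNF alone was 40.1, 28.3, 32.9, 45.5 and 45.9, inside the vehicle range. Of the 45 genes 40 had an estimate above 0, with a median of 0.29 against 0.04 for all genes. FUCA1 lost its call in 12 of the 21 fits that left out 1 array. On the quantile scale 7 genes were called, all 3 and CTSH, CTSS, MAN2B1 and NPC2, and on the trimmed-mean scale 6, without CTSH.

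**Figure D3:**
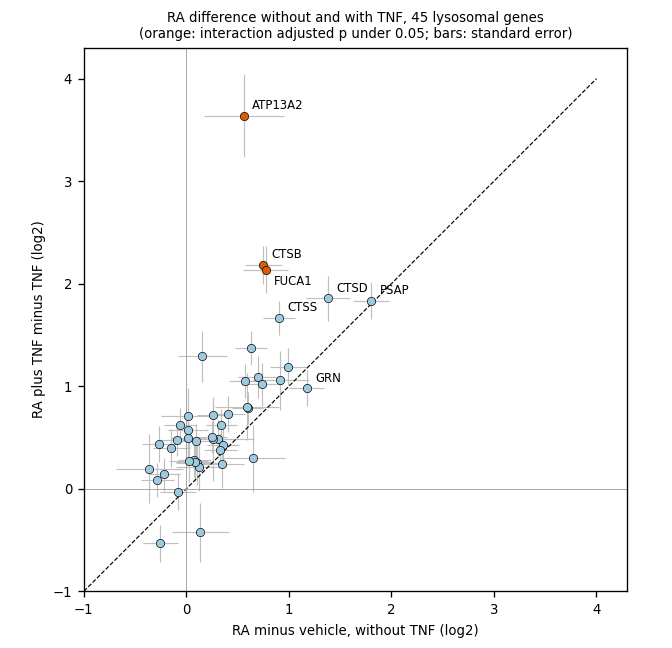
Log2 difference of RA against vehicle (x axis) and of RA plus TNF against TNF (y axis) for the 45 tested lysosomal genes; the dashed line marks equal values. The 3 genes in orange, ATP13A2, CTSB and FUCA1, passed the interaction test and lie above the line.

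The RA time course was compared with 8 vehicle arrays of set 2 (5 harvested at 16 h and 3 at 40 h). No vehicle culture was harvested at 2 or 6 h, so RA and harvest time cannot be told apart at those times. The RA arrays at 16 and 40 h were compared with the same pool, so harvest time was only partly matched there. No gene was called at 2 h, 12 of 46 were called higher at 6 h, 9 at 16 h and 14 at 40 h. None was called lower by limma at any time; at an unadjusted p under 0.05, 10, 24, 13 and 22 were higher at these times, and 1 (NPC1, at 16 h) was lower. Of all 12503 genes tested, 0.84%, 8.21%, 2.36% and 4.45% were called higher at these times, and 0.024%, 0.176%, 4.66% and 0.672% lower. CTSB, CTSD, GUSB, FUCA1, PSAP, TFEB and GRN were called at 6, 16 and 40 h; of these, CTSB, CTSD and GUSB lost the 6 h call on both other scales and TFEB after quantile normalization. The scale itself shifted between times: in the order of the times, the median of all genes was 0.31, 0.38, -0.17 and 0.15, and that of the lysosomal genes 0.28, 0.51, 0.16 and 0.51, so estimates are to be read against those medians. The array medians on the signal scale were 22.1 to 24.4 units at 2 h and 18.9 to 25.6 at 6 h, against 24.8 to 35.6 in the 16 h vehicle arrays, and the part of this in the early values was not tested.

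PSAP was 102 and 119.5 times the array median at 2 h, 130.4 and 182 at 6 h and 153, 196 and 221 at 16 h, against 61.2, 100.2, 69.4, 80.1 and 41.9 in the 16 h vehicle arrays. Its differences were 0.65, 1.13, 1.42 and 2.08 at 2, 6, 16 and 40 h, with an adjusted p of 1.79e-07 at 40 h. GRN was 101 and 112, then 128 and 172, then 144, 149 and 175, against 64.9, 93.7, 74.8, 89.5 and 72.7 in vehicle. In both genes every RA array from 2 h on was above every vehicle array. CTSD was 14.4 and 24.2 at 6 h and 15.8, 19.7 and 25.7 at 16 h, against 10.8, 12.6, 10.9, 11.9 and 6.05 in vehicle, with differences of 0.89 and 0.99, and 1.97 at 40 h.

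TFEB, the transcription factor of the group, was 14.0 and 14.9 at 2 h, 15.0 and 17.3 at 6 h and 9.90, 12.9 and 18.2 at 16 h, against 8.36, 11.0, 6.88, 8.98 and 5.72 in vehicle. Both 2 h arrays were above all vehicle arrays, but the difference at 2 h, 0.85 ± 0.24 (adjusted p = 0.0949), did not pass the test. It passed at 6 h, with 1.01 ± 0.24 (adjusted p = 0.00689), at 16 h, with 0.73 ± 0.20 (adjusted p = 0.0248), and again in the 40 h arrays, with 1.36 ± 0.24 (adjusted p = 0.00018). FUCA1 was 10.5 and 11.5 at 2 h, 14.0 and 21.1 at 6 h and 10.6, 13.0 and 13.7 at 16 h, against 4.59, 7.09, 8.02, 6.28 and 6.98 in vehicle; it was called at 6 h, at 1.34 ± 0.22 (adjusted p = 0.000137), and at 16 and 40 h. In 12 genes both 2 h arrays lay above all vehicle arrays, where 18.8% of all genes did.

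The other genes were called at fewer times, and which times depended on the scale. CTSL and the pump subunit ATP6V0D1 were called at 6 h only, at 0.69 ± 0.22 (adjusted p = 0.0483) and 0.69 ± 0.22 (adjusted p = 0.0445). CTSZ, LIPA and SMPD1 were called at 6 and 40 h and not at 16 h, and CTSS, SGSH, ASAH1 and NPC2 at 16 or 40 h and not at 6 h. On both other scales CTSL, ATP6V0D1, CTSZ and LIPA were not called at 6 h, whereas at 16 h LIPA was, at 0.59 (adjusted p = 0.000174) and 0.60 (adjusted p = 0.000234), as was SMPD1, at 0.61 (adjusted p = 0.0216) and 0.57 (adjusted p = 0.0323), in each case after quantile normalization and on the trimmed-mean signal scale. CTSS, for example, was 0.66 at 6 h (adjusted p = 0.053), 0.58 at 16 h (adjusted p = 0.0521) and 1.10 at 40 h (adjusted p = 0.000793). On the quantile and trimmed-mean scales CTSS was called at 16 h, at 0.71 (adjusted p = 6.16e-06) and 0.72 (adjusted p = 1.89e-05). Differences between times were not tested. LGMN, tested here alone, was 2.57 and 1.06 at 6 h and 1.23, 2.72 and 0.287 at 16 h against 0.304, 1.06, 0.934, 0.317 and 0.932 in vehicle, with 1.54 ± 0.84 (adjusted p = 0.207) at 6 h, and was not called.

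These counts rest on few arrays. The 6 h count was 0 without replicate 2 of the 6 h group, the 16 h count 4 without replicate 3 and 5 without replicate 2 of the 16 h group, the 40 h count 5 without replicate 5 of the RA group, and the 2 h count 1 without replicate 2 or 4 of the 16 h vehicle group. CTSD, FUCA1, PSAP and GRN at 16 h, and these and CTSB at 40 h, passed whichever array was left out. On the quantile and trimmed-mean scales 4 and 5 genes were called at 6 h, and 17 and 15 at 16 h. Averaged over all their probe sets, CTSZ and GUSB at 6 and 40 h and FUCA1 at 16 h were below 0. Each of these genes has 2 probe sets, and the one not kept was too dim for the test.

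**Figure D4:**
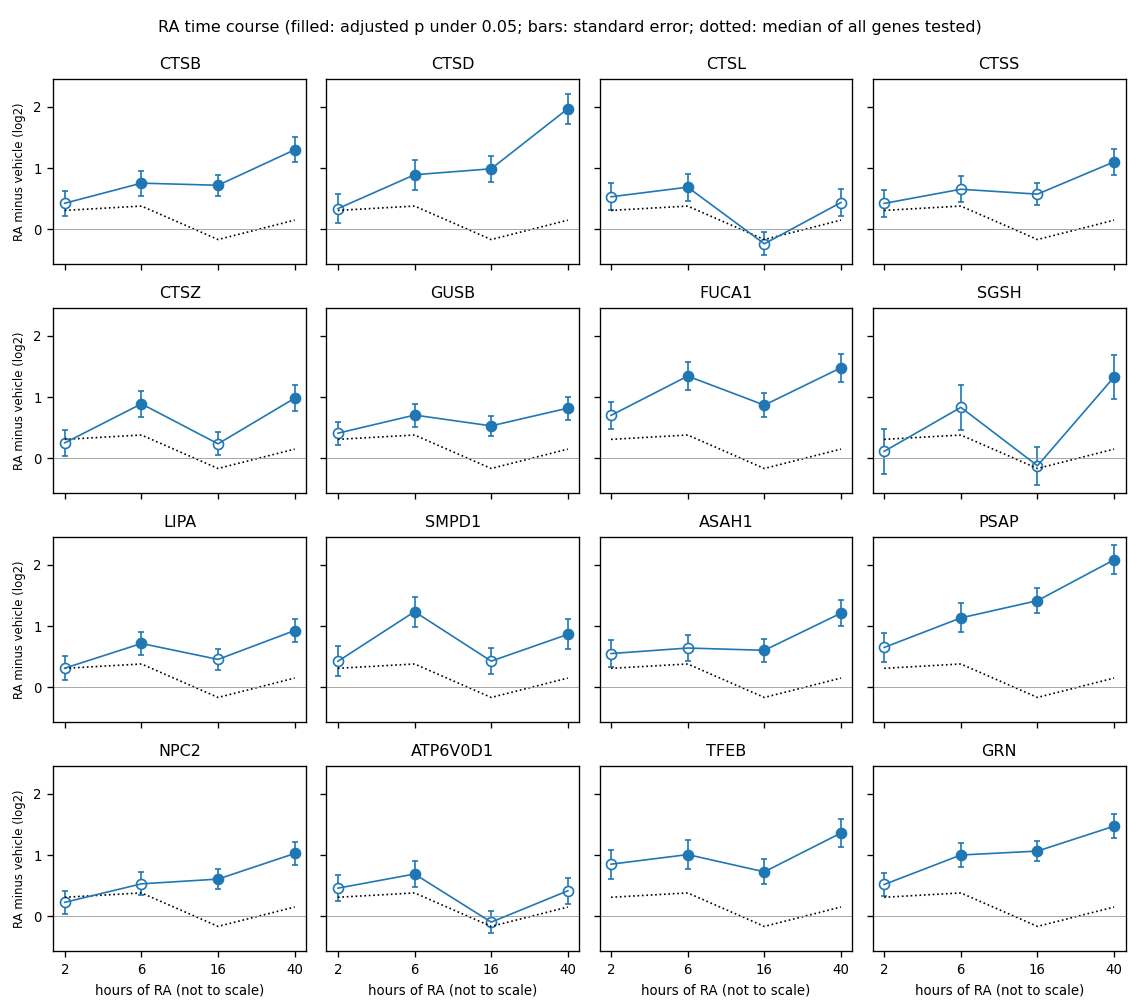
Log2 difference from vehicle at 2, 6, 16 and 40 h of RA for the 16 lysosomal genes called at any time, with the median of all genes tested as a dotted line. PSAP reaches 2.08 at 40 h, and the dotted median dips to -0.17 at 16 h.

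In the 6 comparisons at 40 h every called gene had the same direction in both array sets. The genes were called in a fit to both sets together, so a shared direction was largely fixed by the calling. The share of all called genes with a shared direction was not computed. All 12 genes called with RA were higher in both sets, and all 12 were higher by more in set 2. CTSB was 0.38 in set 1 and 1.27 in set 2, TFEB 0.27 and 1.35, and PSAP 1.67 and 1.99. Fitted alone, set 1 (3 RA arrays) called 2 genes and set 2 (2 RA arrays) 14. For RA plus TNF against vehicle all 25 genes were higher in both sets, 11 by more in set 2 and 14 by more in set 1. The 13 genes raised by TNF over RA alone were all raised by more in set 1, where 18 were called, against 3 in set 2. This comparison, RA against vehicle and the interaction share the same RA arrays within each set, so their differences between sets are not separate observations. The interactions were likewise larger in set 1, at 3.80 and 2.15 in sets 1 and 2 for ATP13A2, 1.89 and 0.78 for CTSB and 2.06 and 0.43 for FUCA1; the 3 were called in set 1 alone and none in set 2 alone. Whether an effect differed between sets, and the part of the 3′ to 5′ ratio in it, was not tested.

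**Figure D5:**
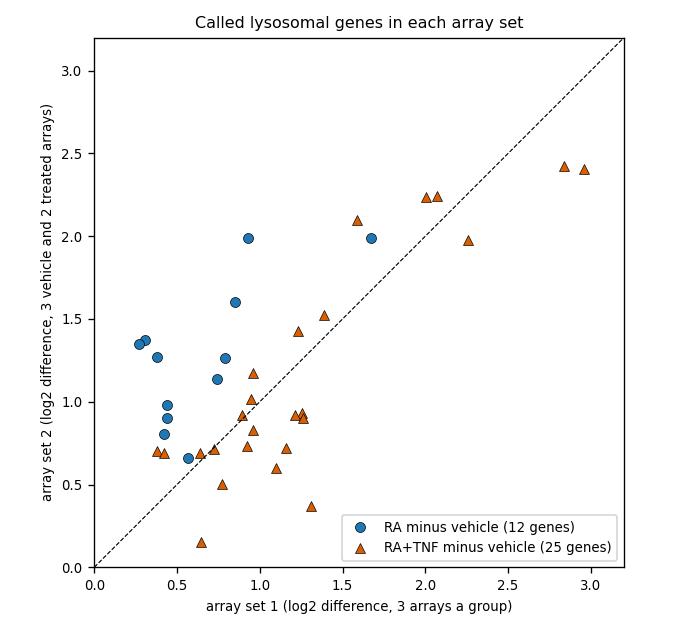
Log2 difference from vehicle in array set 1 (x axis) and array set 2 (y axis) of the genes called with RA (12) and with RA plus TNF (25). All circles (RA) lie above the dashed line of equal values; the triangles (RA plus TNF) lie on both sides, 11 above and 14 below.

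Other genes of the pathway were read from a list of 117 further lysosomal, pump, sorting, TFEB-family, cystatin and autophagy genes, of which 105 were tested at 40 h. With RA alone 4 of the 105 were higher and 1 lower (3.81% and 0.952%), shares near those of all genes (2.77% and 1.37%): GM2A, the GM2 activator (0.85 ± 0.17), the sulfatase GALNS (0.91 ± 0.21), the protease CTSO (0.70 ± 0.19) and the sorting receptor SORL1 (0.75 ± 0.16) rose, and the acetyltransferase HGSNAT fell (-0.69 ± 0.20). With TNF 3 were higher and 11 lower (2.86% and 10.5%), against 6.69% and 4.62% of all genes. The autophagy receptor SQSTM1 (1.49 ± 0.17), ATG7 (1.10 ± 0.17) and the cystatin CSTB (0.49 ± 0.16) rose, and 7 of 18 further hydrolases, such as SCPEP1 (-1.04 ± 0.18), and SORL1 (-1.34 ± 0.16) were among those that fell.

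With RA plus TNF 23 of the 105 were higher than in vehicle and 4 lower (21.9% and 3.81%), against 11.7% and 7.42% of all genes. By class, 4 of 19 genes of the TFEB family and nutrient sensing, 4 of 13 pump subunits, 3 of 14 tagging and sorting genes and 3 of 18 autophagy genes were higher (21.1%, 30.8%, 21.4% and 16.7%); whether these shares differ from 11.7% was not tested. In the TFEB family, MITF (0.88 ± 0.20), TFE3 (0.90 ± 0.21) and TFEC (0.86 ± 0.16) were higher. Of 13 further pump subunits 4 were higher, among them ATP6V1B2 (0.66 ± 0.15) and ATP6V1C1 (0.65 ± 0.16), and all 13 were above 0. GNPTAB, which makes the mannose 6-phosphate tag (1.10 ± 0.23), and its receptor M6PR (0.77 ± 0.16) were higher, while SORL1 was lower (-0.80 ± 0.16). SQSTM1 (1.95 ± 0.17) and MAP1LC3B (0.93 ± 0.19), which coats autophagosomes, were higher. The hydrolases were split, 4 higher and 3 lower of 18, with SIAE lowest at -1.80 ± 0.25.

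Against TNF alone, adding RA raised 14 of the 105 and lowered 2 (13.3% and 1.9%), where 4.6% and 2.69% of all genes were. Against RA alone, adding TNF raised 11 and lowered 6 (10.5% and 5.71%), near the 7.63% and 4.55% of all genes. No interaction was called by limma among them, and 9 were positive and 1 negative at an unadjusted p under 0.05. In the time course limma called 0 of these genes at 2 h (22 higher and 1 lower at an unadjusted p under 0.05), 14 were higher at 6 h (13.3%, against 8.21% of all genes), 3 higher and 4 lower at 16 h (2.86% and 3.81%, against 2.36% and 4.66%), and 8 higher and 1 lower at 40 h (7.62% and 0.952%, against 4.45% and 0.672%).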

How the data were processed

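RNA of 33 THP-1 cultures was extracted with Trizol, labelled with biotin and hybridised to Affymetrix HG-U133 Plus 2 arrays, per the labels' protocols. The deposited values are log2 signals with each array's median at 0; the submitters' processing notes name GCOS, the array maker's software, and no further step is given in the sources used here. The log base and centring were read from the values: undoing them gave signals in multiples of 0.1 units (within 0.006) for 100% of values, with a mean of 150 on each array after trimming 2% at each end and array medians of 18.9 to 45.2 units.

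Of 54675 probe sets, 62 were controls, 41091 named 1 gene, 1801 several and 11721 none; 41037 matched RefSeq genes. For each gene the brightest single-gene probe set was kept if its mean linear level over the arrays of the fit reached the median of all probe sets (0.882 at 40 h, 0.891 in the time course). Those of IDS, ASAH1 and GRN are of the x_at kind, which may bind related transcripts.

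Groups were compared with limma 3.58.1 (lmFit and eBayes with an intensity trend; R 4.3.3, data.table version 1.17.8) and Benjamini-Hochberg adjustment over all genes tested. The 40 h fit held 21 arrays and an array set term (16 residual degrees of freedom), the time course 17 arrays of set 2 (12 residual degrees of freedom); 5 arrays are in both fits. The code was tested on simulated data. No depth applies to arrays; their number limits the precision. Alternatives were quantile normalization, the trimmed-mean signal scale, other filters, the mean of all probe sets, no trend, no array set term, a replicate block, single array sets, the 16 h vehicle arrays alone and leaving out each array.

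The 49 genes, the further lists and the tests were chosen with earlier results of these data known. All listed genes may be named; those called are described with their values by array. Genes outside the list were named from 117 others, up to 4 per class and comparison, by smallest adjusted p among those called. The promoter and gene coordinates are RefSeq's (GRCh38.p14), and promoter windows matched 35 of the 49 genes.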

Additional observations from a re-analysis of the deposited data

Results flagged for a closer look

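The RA difference was larger with TNF than without it, by the interaction test given above, for ATP13A2 (3.08 on the log2 scale, and 2.54 without TNF replicate 3, with TNF arrays below the array median), CTSB (1.43) and FUCA1 (1.36).

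In 14 of 225 gene and group combinations of 5 or 6 arrays (6.22%), 1 array stood apart from the rest by Dixon's gap test on log2 values at its 95% critical value, where chance gives about 1 in 20. The array was the lowest of its group in 12 of the 14; the log2 scale widens gaps at the low end, and the values below are linear. Replicate 3 of the 40 h vehicle group was low in 4 genes: NEU1 (11.8 times the array median, next value 17.8), ARSA (0.646, next 2.51), SMPD1 (0.86, next 2.45) and NPC2 (51.7, next 78.2). Replicate 3 of the TNF group was low in CTSK (1.51, next 2.68), ARSA (0.41, next 2.14) and ATP13A2 (0.122, next 0.574). Replicate 1 of the 16 h vehicle group was low in GUSB (58.6, next 75.7), NPC2 (57.0, next 76.1) and CD63 (153.9, next 215), and replicate 5 of that group in CTSD (6.05, next 10.8). MCOLN1 was low in replicate 2 of the RA group (0.959, next 3.04). The highest of a group stood apart for NAGLU in replicate 2 of RA plus TNF (6.58, next 5.53) and for PPT1 in replicate 1 of RA (783.6, next 677). Results without each of these arrays are among the ranges of the next part.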

How the results depend on the processing

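Called genes kept their direction under each alternative in which they were tested, except for the mean of a gene's probe sets. ATP13A2, MCOLN1 and SMPD1 at 40 h and SGSH in the time course were not tested under the stricter filter, nor NPC1 with TNF, SMPD1 at 40 h and SGSH in the time course under the mean of the probe sets. That last setting gave -0.13 for GUSB with RA at 40 h, -0.39 for CTSZ and -0.54 for GUSB at 6 h, -0.53 for FUCA1 at 16 h, and -0.44 for CTSZ and -0.48 for GUSB at 40 h in the time course. In each of these genes the mean takes in a probe set too dim for the test. The setting called 5 genes at 6 h and 8 at 40 h.

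Counts of called genes within 1.5 times those reported are not repeated here. Counts under the alternatives are given, here and above, without the shares of all genes called under the same setting. For RA against vehicle (12), 7 were called without a trend, 5 without the array set term and 2 in set 1 alone. For TNF (9) the counts were 18 after quantile normalization, 16 on the trimmed-mean scale and 5 in set 1 alone. For RA plus TNF against TNF (20) they were 13 without the array set term and 12 in set 2 alone, and against RA (13) 20 after quantile normalization and 3 in set 2 alone. The interaction (3) gave 7 after quantile normalization, 6 on the trimmed-mean scale, 1 without a trend, 1 without the array set term and 0 in set 2 alone. At 2 h (0) the stricter filter, the 75th percentile, called 2. At 6 h (12) quantile normalization called 4 and the trimmed-mean scale 5, and at 16 h (9) 17 and 15. The cause was not tested. Leaving out 1 array gave 5 to 14 genes for RA, 7 to 9 for TNF, 21 to 29 for RA plus TNF, 17 to 22 against TNF, 11 to 18 against RA and 2 to 4 for the interaction, and in the time course 0 to 1, 0 to 17, 4 to 10 and 5 to 14 at 2, 6, 16 and 40 h.

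Groups share replicate numbers. Deviations of arrays of the same number correlated at -0.04 to 0.07 at 40 h and -0.04 to 0.06 in the time course. Those of other numbers correlated at -0.08 to 0.08 and -0.09 to 0.09. Of 21 and 17 arrays, 3 and 6 correlated best with their own number. No pairing by replicate number was seen over all genes, dim ones included. Noise in dim genes may hide a weak pairing, and a pairing by the order of the record numbers was not tested. With the replicate number as a block, 10, 8, 23, 20, 15 and 2 genes were called in the 6 comparisons at 40 h, in the order of the report, and 0, 5, 5 and 13 in the time course. Signals near or below the array median, such as those of ATP13A2, MCOLN1, SGSH and LGMN, carry the widest relative error.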
